A study of Mus musculus with 9 samples.

Results

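Aminoacyl-tRNA synthetases are the enzymes that load each tRNA with its amino acid, and 40 of their genes were followed here in SIX2-expressing nephron progenitors whose mitochondrial complex III had been disrupted. The members were taken by symbol from a fixed list: 20 enzymes of the cytosol, 3 scaffold proteins of the multi-synthetase complex, the cytosolic paralog *Tarsl2* and 16 enzymes of the mitochondrion. All 40 were found among the 26858 genes of the count table, and all 40 passed the filter on low counts, as did 14990 genes in all. The libraries came from cells sorted at E18.5 for an enhanced green fluorescent protein fused to Cre recombinase, which a transgene expresses from the *Six2* promoter. Both genotypes carried this transgene and a floxed *Qpc* (*Uqcrq*) allele. Control cells were heterozygous for it (*Six2-Qpc*+/-, n = 4) and mutant cells homozygous (*Six2-Qpc*-/-, n = 5). No group without Cre was compared. The paper reported that heterozygous mice already had a lower kidney ratio of NAD+ to NADH and lighter kidneys at birth, although their development was normal. The comparison is therefore with partial loss of the gene. The labels do not say whether a library came from a single embryo or from pooled kidneys, so p-values measure the spread between these libraries.

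Cells hold separate enzyme sets for the cytosol and for the mitochondrion, where the few proteins encoded by mitochondrial DNA are made. Both sets are encoded in the nucleus, and *Gars* and *Kars* each serve both compartments. Several cytosolic enzymes sit in the multi-synthetase complex, held together by *Aimp1*, *Aimp2* and *Eef1e1*. When an amino acid runs short, uncharged tRNA activates the kinase GCN2 (*Eif2ak4*), translation of the transcription factor ATF4 rises, and ATF4 with C/EBP partners binds DNA letters known as amino acid response elements, which are known near several cytosolic synthetase genes. The paper that reported these data asked how loss of complex III affects amino acid metabolism of these progenitors, and the comparison of mutant with control libraries addresses how the 2 enzyme sets took part.

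Because the response element has a known sequence, the promoters of the members were searched for it. The motif was TGATGNAA, where N is any base, on either strand, and TGATGCAA is a narrower form whose matches are all counted in the wider form as well. The windows, from RefSeq on build GRCm38.p6, run from 250 bases before to 50 bases after a gene's start. A window was found for 31 of 40 members (33 windows, since *Aimp1* and *Aars2* have a pair each), and none was found for *Cars*, *Hars*, *Lars*, *Nars*, *Rars*, *Vars*, *Wars*, *Hars2* and *Pars2*. Of 32851 windows of all genes, 3.97% held TGATGNAA and 0.895% held TGATGCAA. Among the members, 5 of 33 windows held TGATGNAA, and all 5 belonged to cytosolic enzymes: *Aars*, *Gars*, *Iars*, *Tars* and *Yars*. These 5 genes were also among the enzymes that rose in mutant cells, as described below. Of the 7 cytosolic enzymes that rose and had a window, 5 held TGATGNAA and 4 held TGATGCAA. None of the 6 windows of cytosolic enzymes that did not pass the test held either form, and none of the 15 windows of mitochondrial enzymes did. These are counts of letters in short windows, and whether ATF4 binds there was not tested.

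The 5 windows are shown because they carry this difference between the enzyme sets, in the direction of the gene and with each match in capitals. They lie at chr8:111033592-111033891 on the plus strand for *Aars*, chr6:55037751-55038050 on the plus strand for *Gars*, chr13:49681880-49682179 on the plus strand for *Iars*, chr15:11399609-11399908 on the minus strand for *Tars*, chr4:129189653-129189952 on the plus strand for *Yars*. With the start base as position 0, the first base of the match is at −112 in *Aars*, −30 in *Gars*, −15 in *Tars*, 3 in *Yars* and 7 in *Iars*, and *Aars* holds another match after its start. The match reads TTGCATCA or TTTCATCA where it is on the opposite strand, and TGATGCAA in *Yars*.
Aars: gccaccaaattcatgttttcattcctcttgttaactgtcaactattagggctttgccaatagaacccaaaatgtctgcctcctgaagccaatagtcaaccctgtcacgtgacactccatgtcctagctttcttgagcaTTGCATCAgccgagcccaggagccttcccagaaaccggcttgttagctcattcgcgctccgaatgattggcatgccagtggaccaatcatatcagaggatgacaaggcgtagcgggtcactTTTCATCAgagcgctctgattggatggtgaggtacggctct
Gars: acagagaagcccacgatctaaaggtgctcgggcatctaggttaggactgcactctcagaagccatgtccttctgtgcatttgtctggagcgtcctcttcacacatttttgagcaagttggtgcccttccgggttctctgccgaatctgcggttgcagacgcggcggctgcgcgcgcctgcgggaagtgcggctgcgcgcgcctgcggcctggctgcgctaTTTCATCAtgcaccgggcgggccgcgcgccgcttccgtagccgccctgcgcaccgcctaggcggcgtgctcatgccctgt
Iars: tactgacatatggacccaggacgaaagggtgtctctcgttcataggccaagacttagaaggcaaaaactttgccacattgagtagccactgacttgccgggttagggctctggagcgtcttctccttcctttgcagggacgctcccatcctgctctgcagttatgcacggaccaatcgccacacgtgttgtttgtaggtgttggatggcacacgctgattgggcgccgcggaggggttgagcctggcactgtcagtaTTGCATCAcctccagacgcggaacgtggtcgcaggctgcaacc
Tars: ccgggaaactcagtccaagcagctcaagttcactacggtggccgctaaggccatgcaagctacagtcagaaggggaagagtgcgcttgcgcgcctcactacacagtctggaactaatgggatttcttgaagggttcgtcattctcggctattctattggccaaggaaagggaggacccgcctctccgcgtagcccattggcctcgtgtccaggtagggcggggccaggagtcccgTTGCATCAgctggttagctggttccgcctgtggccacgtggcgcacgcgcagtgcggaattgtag
Yars: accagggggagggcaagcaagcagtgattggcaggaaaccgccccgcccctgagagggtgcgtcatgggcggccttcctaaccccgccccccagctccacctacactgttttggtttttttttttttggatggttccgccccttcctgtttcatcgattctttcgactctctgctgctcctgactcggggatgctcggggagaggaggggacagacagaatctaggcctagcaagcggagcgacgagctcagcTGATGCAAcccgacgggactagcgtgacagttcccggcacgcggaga

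The libraries held between 21040536 and 23986458 counts, and values below are counts per 1000000 counts of the TMM-normalized library size (CPM). The targeted gene *Uqcrq* was at 76.8 to 107 CPM in control and 16.5 to 28.2 CPM in mutant libraries, so no label went against it. Of the 9 nephron progenitor markers, none passed the test, and their summed level was 1739 to 2118 CPM in control and 1953 to 2305 CPM in mutant libraries. Genes of the first steps of nephron formation were not among the markers. For these the paper reported lower *Fgf8*, *Lef1*, *Wnt4*, *Lhx1* and *Jag1* in the mutant cells. It could not fully exclude that differentiating control cells with low GFP were sorted as well. The part of this difference in the values below was not tested. Stromal markers were low but higher in mutant cells, with 5 of 7 past the threshold (*Foxd1*, *Pdgfra*, *Col1a1*, *Col3a1* and *Meis1*) and a summed level of 99 to 170 CPM in control and 227 to 621 CPM in mutant libraries. The highest stromal sum, 621 CPM, was that of mutant 75. Of 5 myeloid markers, none passed, with sums of 0.17 to 6.16 CPM in control and 2.3 to 55.9 CPM in mutant libraries. Among the ureteric bud, endothelial, erythroid, podocyte and proximal tubule markers that could be tested, *Pecam1* of endothelium passed, and no list other than the progenitor and stromal lists reached a summed level above 67.6 CPM. None of the markers was at 0 in all 9 libraries. In sorted cells measured in bulk, fewer cells of a type and less RNA per cell cannot be told apart. Y-linked transcripts were present in control 72, control 73 and mutant 79 and nearly absent from the other libraries, and the labels give no sex, so a covariate for them was among the alternatives.

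In mutant cells 10 of the 20 cytosolic enzymes rose and none fell, whereas 2 of the 16 mitochondrial enzymes rose and 2 fell. These calls are adjusted p-values under 0.05 (edgeR quasi-likelihood test, Benjamini-Hochberg over all genes). Among all genes tested, 7.82% were called higher and 7.02% lower, and in the 9349 genes that averaged 10 CPM or more these shares were 9.21% and 7.22%. The median log2 fold change of the 20 cytosolic enzymes was 0.46, with a range from −0.11 to 1.0, beside a median of −0.009 over all genes tested. The 16 mitochondrial enzymes had a median of −0.16 and a range from −0.62 to 0.84. None of the 3 scaffold genes passed, nor did *Tarsl2*. Over all 40 members, 12 were called higher, 2 lower and 26 did not pass.

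**Figure D1:**
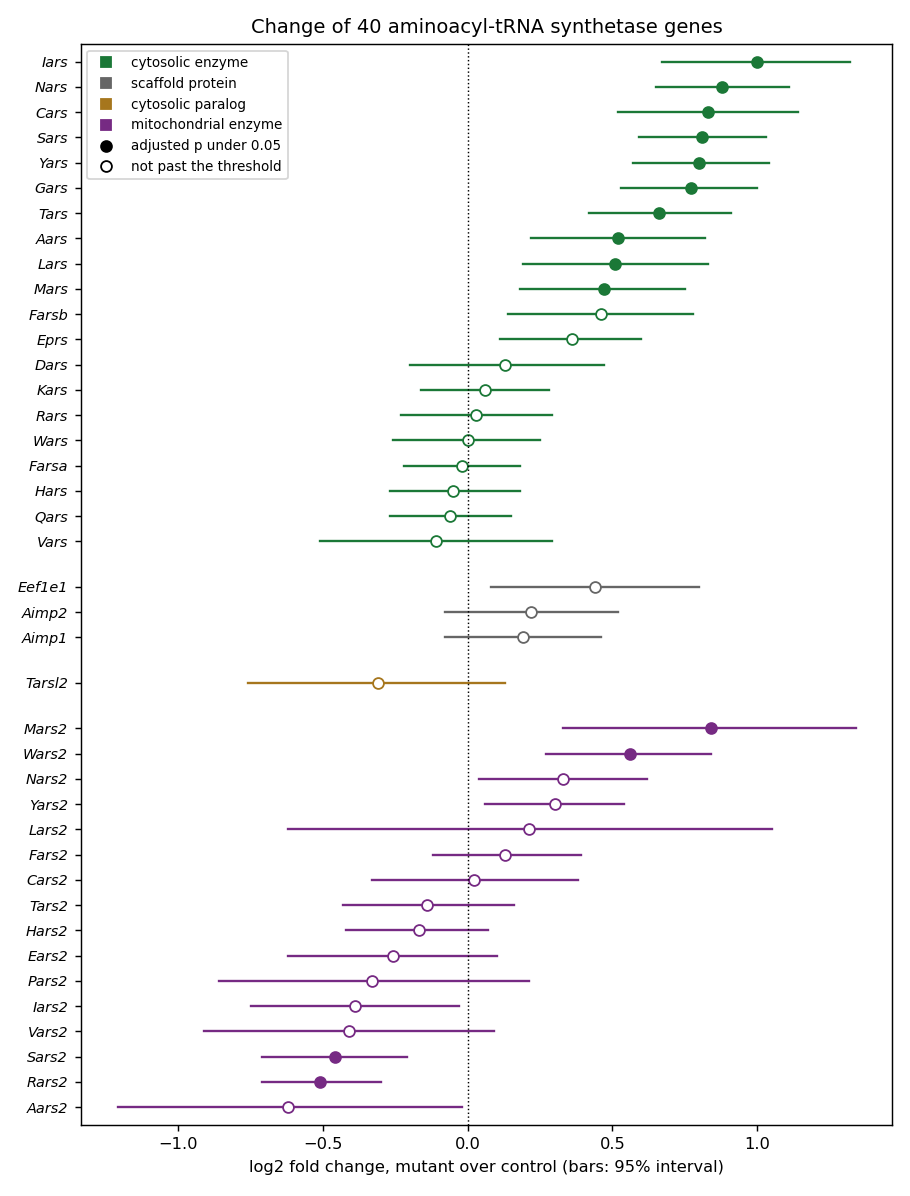
Log2 fold change (x axis, mutant over control, with approximate 95% intervals) of the 40 genes in 4 classes, filled where the adjusted p was under 0.05. The 10 filled cytosolic enzymes lie between 0.47 and 1.0, and the filled mitochondrial enzymes lie on both sides of 0, between −0.51 and 0.84.

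The summed level of the cytosolic enzymes was 2918, 3032, 3286 and 3191 CPM in control libraries 71, 72, 73 and 76. It was 3907, 3982, 4559, 4090 and 4781 CPM in mutant libraries 74, 75, 77, 78 and 79. The genotypes did not overlap, and the mean rose by 37.2%, from 3107 ± 164 (SD, n = 4) to 4264 ± 385 CPM (SD, n = 5). The summed level of the mitochondrial enzymes without *Lars2*, which is described apart, was 503 to 572 CPM in control and 477 to 534 CPM in mutant libraries. These ranges overlapped, and the means were 545 ± 32.7 (SD, n = 4) and 508 ± 24.2 CPM (SD, n = 5). Leaving out *Lars2* was chosen after its values were seen. With *Lars2* the ranges also overlapped, and the means were 1219 ± 280 (SD, n = 4) and 1290 ± 468 CPM (SD, n = 5). The direction of the small difference in means thus depended on this choice. In every sentence that follows, values in single libraries are given in the order control 71, 72, 73, 76 and mutant 74, 75, 77, 78, 79.

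**Figure D2:**
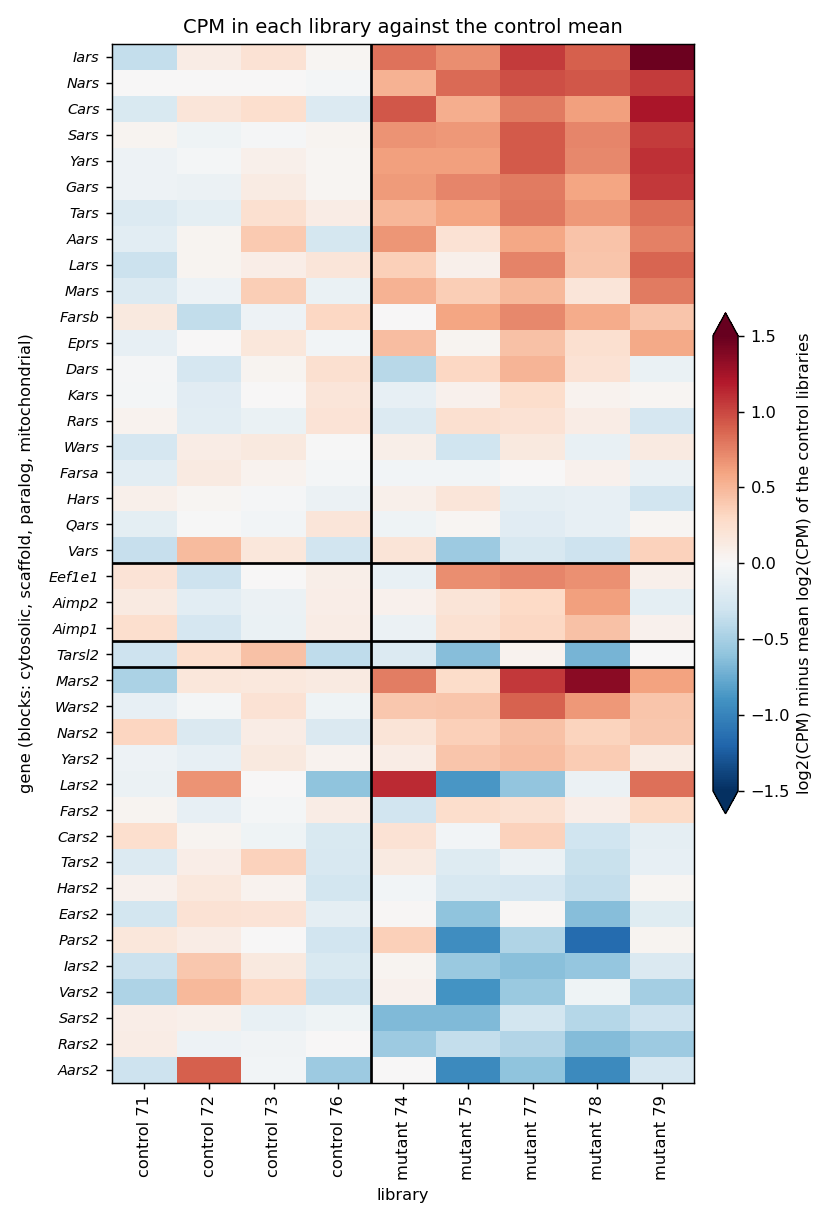
Level of each of the 40 genes (rows) in each of the 9 libraries (columns) as log2(CPM) minus the mean log2(CPM) of the control libraries, with red above and blue below that mean. The upper 10 cytosolic rows are red across the mutant libraries, most strongly in mutant 79, and the mitochondrial rows hold both colours.

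*Iars* charges tRNA with isoleucine, and its gene (GRCm38 chr13:49682100-49734267) had the largest rise among the cytosolic enzymes. It was at 83, 115, 124 and 109 CPM in control and 188, 173, 220, 198 and 295 CPM in mutant libraries. The lowest mutant library was above the highest control library, and the log2 fold change was 1.0 (SE 0.17, edgeR adjusted p = 0.00295), a fold of 1.99. Its promoter window holds the motif just after the start.

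*Nars* charges tRNA with asparagine (GRCm38 chr18:64499665-64516557). It was at 269, 269, 269 and 262 CPM in control and 384, 482, 524, 511 and 555 CPM in mutant libraries. The control libraries hardly differed, with a coefficient of variation of 1.28%, whereas the mutant libraries varied by 13.3%, and the log2 fold change was 0.88 (SE 0.12, edgeR adjusted p = 0.000886). From the same RNA-seq the paper already reported changed synthetase genes and a rise of *Nars*, which it also measured by quantitative PCR. The rise described here is therefore not independent of that report.

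*Cars*, the enzyme for cysteine (GRCm38 chr7:143557230-143600090), was at 71.5, 94.7, 99.4 and 72.5 CPM in control and 159, 122, 144, 128 and 195 CPM in mutant libraries. Both genotypes varied, yet they did not overlap, and the log2 fold change was 0.83 (SE 0.16, edgeR adjusted p = 0.00571). *Sars*, the enzyme for serine (GRCm38 chr3:108424865-108445209), was at 238, 221, 229 and 237 CPM in control and 369, 363, 436, 383 and 480 CPM in mutant libraries. It also charges the tRNA on which selenocysteine is made. Its log2 fold change was 0.81 (SE 0.11, edgeR adjusted p = 0.00115), with no overlap between genotypes, and its window did not hold the motif. *Yars*, the enzyme for tyrosine (GRCm38 chr4:129189760-129219607), was at 153, 157, 170 and 164 CPM in control and 247, 246, 304, 265 and 343 CPM in mutant libraries. The genotypes were again apart, and the log2 fold change was 0.80 (SE 0.12, edgeR adjusted p = 0.00175).

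*Gars*, for glycine in both compartments, rose by a log2 fold change of 0.77 (SE 0.12), and *Tars*, for threonine, by 0.66 (SE 0.12), again without overlap. For these 7 enzymes all mutant libraries exceeded all control libraries, which held for 7.5% of all genes tested and for 8.85% of those that averaged 10 CPM or more. *Aars*, for alanine, *Lars*, for leucine, and *Mars*, for methionine, rose by 0.52, 0.51 and 0.47 on the log2 scale, and their genotypes overlapped. Just inside the threshold was *Lars*, with an edgeR adjusted p of 0.0498, and just outside it was *Eprs*, which charges tRNA with glutamate and with proline, at 0.068 and a log2 fold change of 0.36 (SE 0.12). *Farsb*, the beta subunit of the enzyme for phenylalanine, had 0.46 (SE 0.16, edgeR adjusted p = 0.0733).

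The other 8 cytosolic enzymes had log2 fold changes between −0.11 and 0.13 and adjusted p-values of at least 0.643. They were *Dars*, *Kars*, *Rars*, *Wars*, *Farsa*, *Hars*, *Qars* and *Vars*, for aspartate, lysine, arginine, tryptophan, phenylalanine, histidine, glutamine and valine. *Wars* was at 72, 92.4, 94.7 and 85 CPM in control and 91.1, 69.7, 94.8, 79 and 93.9 CPM in mutant libraries. The genotypes overlapped, and the approximate 95% interval of the log2 fold change was −0.26 to 0.25. *Farsa* was at 129, 158, 149 and 141 CPM in control and 140, 140, 145, 151 and 135 CPM in mutant libraries, with an interval from −0.22 to 0.18. *Rars* was at 154, 133, 139 and 171 CPM in control and 129, 176, 173, 160 and 125 CPM in mutant libraries, with an interval from −0.23 to 0.29. These 3 intervals did not reach 0.47, the lowest point estimate among the 10 enzymes that rose, whereas that of *Dars* ran from −0.20 to 0.47. That lowest estimate was of *Mars*, whose own interval, 0.18 to 0.75, overlapped those of *Wars* and *Rars*. Differences in fold change between these genes were not tested.

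Membership of the multi-synthetase complex and the structural class of the enzyme divided the cytosolic set in different ways. Of the 8 enzymes of the complex, 3 were called higher (*Iars*, *Lars* and *Mars*), with a median log2 fold change of 0.25. Of the 12 other cytosolic enzymes, 7 were called higher, with a median of 0.59. The summed level rose by 22.6% for the former and by 48.5% for the latter, and the difference between them was not tested. Of 10 enzymes with the Rossmann-fold catalytic domain (class I, in which *Eprs* was counted although it also holds a class II enzyme), 5 were called higher, as were 5 of the 10 class II enzymes. The division by structural class was made after the values were seen.

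The scaffold genes were *Aimp1*, *Aimp2* and *Eef1e1*. *Aimp1* was at 97.2, 68.8, 76.4 and 88.3 CPM in control and 77, 95.7, 102, 111 and 85.8 CPM in mutant libraries, and *Aimp2* at 49.9, 40.6, 42.8 and 48.7 CPM and 47.4, 52, 55.9, 69.5 and 40.9 CPM. Both overlapped between genotypes, with log2 fold changes of 0.19 (SE 0.14, edgeR adjusted p = 0.379) and 0.22 (SE 0.15, 0.344). *Eef1e1* was at 89.9, 62.9, 78.3 and 82.7 CPM in control and 71.8 and 81.8 CPM in mutants 74 and 79, which lay among the controls. Mutants 75, 77 and 78, at 125 to 129 CPM, were above all controls. Its log2 fold change was 0.44 (SE 0.18, edgeR adjusted p = 0.12). *Tarsl2*, a cytosolic paralog of *Tars*, was at 12.1, 17.8, 20.4 and 11.5 CPM in control and 13, 9.61, 15.5, 9.25 and 15 CPM in mutant libraries. The genotypes overlapped, with a log2 fold change of −0.31 (SE 0.23, edgeR adjusted p = 0.376).

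Levels between genes were compared per length, as FPKM computed by the authors. In control cells the 20 cytosolic enzymes had mean levels of 19.6 to 131 FPKM with a median of 51.1, and *Kars* was the highest of them. The 15 mitochondrial enzymes other than *Lars2* had mean levels of 0.398 to 45 FPKM with a median of 7.24, from *Mars2* at the bottom to *Rars2* at the top. The enzymes that rose were spread over the cytosolic range, from *Aars* at 19.6 ± 4.51 FPKM (SD, n = 4), the lowest of the set, to *Nars* at 105 ± 4.69 FPKM (SD, n = 4). In mutant cells *Nars*, at 181 ± 22.7 FPKM (SD, n = 5), had a higher mean than *Kars*, at 128 ± 8.6 FPKM (SD, n = 5).

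Of the mitochondrial enzymes, *Mars2*, *Wars2*, *Rars2* and *Sars2* passed the threshold, and their directions differed. *Mars2*, for methionine (GRCm38 chr1:55237177-55248470), was at 3.07, 4.79, 4.76 and 4.68 CPM in control and 7.24, 5.14, 8.87, 10.9 and 6.49 CPM in mutant libraries. It was the member with the lowest level, resting on 72 to 222 reads per library, and rose by a log2 fold change of 0.84 (SE 0.26, edgeR adjusted p = 0.0447). *Wars2*, for tryptophan (GRCm38 chr3:99141068-99239186), was at 23.9, 25.4, 30.3 and 24.9 CPM in control and 34.3, 34.6, 47.9, 40.8 and 34.6 CPM in mutant libraries (log2 fold change 0.56, SE 0.14, edgeR adjusted p = 0.0228). In both genes the mutant libraries all exceeded the control libraries.

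*Rars2*, for arginine (GRCm38 chr4:34614957-34660167), was at 87.9, 77.2, 78.1 and 81.6 CPM in control and 55.6, 63.1, 59.7, 51.6 and 55.7 CPM in mutant libraries. It fell by a log2 fold change of −0.51 (SE 0.11, edgeR adjusted p = 0.00867). *Sars2*, for serine (GRCm38 chr7:28741968-28753879), was at 50.2, 49.4, 43.4 and 44.9 CPM in control and 29.7, 29.6, 38.6, 34.8 and 37.7 CPM in mutant libraries (log2 fold change −0.46, SE 0.13, edgeR adjusted p = 0.0295). For both genes the mutant libraries all lay under the control libraries, which held for 7.73% of all genes tested and for 7.46% of those that averaged 10 CPM or more.

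The largest fitted changes among the 12 mitochondrial enzymes that did not pass were those of *Aars2* and *Vars2*. *Aars2* was at 9.5, 22, 11.5 and 8.06 CPM in control and 11.8, 6.07, 7.75, 6.1 and 9.89 CPM in mutant libraries. Control 72 stood well above the rest, and the log2 fold change of −0.62 (SE 0.30) had an edgeR adjusted p of 0.182. *Vars2* was at 7.5, 14.5, 12.8 and 8.27 CPM in control and 10.8, 5.58, 7.04, 9.89 and 7.3 CPM in mutant libraries, with a log2 fold change of −0.41 (SE 0.26, edgeR adjusted p = 0.3). The genotypes overlapped in both. The remaining 10 (*Cars2*, *Ears2*, *Fars2*, *Hars2*, *Iars2*, *Lars2*, *Nars2*, *Pars2*, *Tars2* and *Yars2*) had log2 fold changes between −0.39 and 0.33.

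*Lars2*, for leucine, had the highest level of the 40 genes, 182 ± 74.8 FPKM (SD, n = 4) in control cells, and varied more between libraries of a genotype than between genotypes. It was at 603, 1025, 643 and 423 CPM in control and 1394, 350, 425, 604 and 1135 CPM in mutant libraries. Control 72, mutant 74 and mutant 79 were the highest libraries, so high values occurred in both genotypes, and the log2 fold change was 0.21 (SE 0.43, edgeR adjusted p = 0.772). The non-coding gene *Gm26917* was at 110, 264, 117 and 96.7 CPM in control and 248, 68.1, 105, 155 and 246 CPM in mutant libraries, and was high in the same 3 libraries. *Gm15564* on chromosome 16 was at 4.69, 6.35, 5.23 and 3 CPM and 10.6, 2.26, 2.81, 2.36 and 7.35 CPM, again with its highest values in those 3. These genes were picked after the values were seen. In the transcript of *Lars2* (3894 bases), bases 3278 to 3349, after the last coding base at 2905 and so in the 3′ untranslated region, were 98.6% identical over 72 bases to a transcript of *Gm15564*. How reads from such shared letters were assigned is not given in the sources used here, and their part in the level of *Lars2* was not tested.

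**Figure D3:**
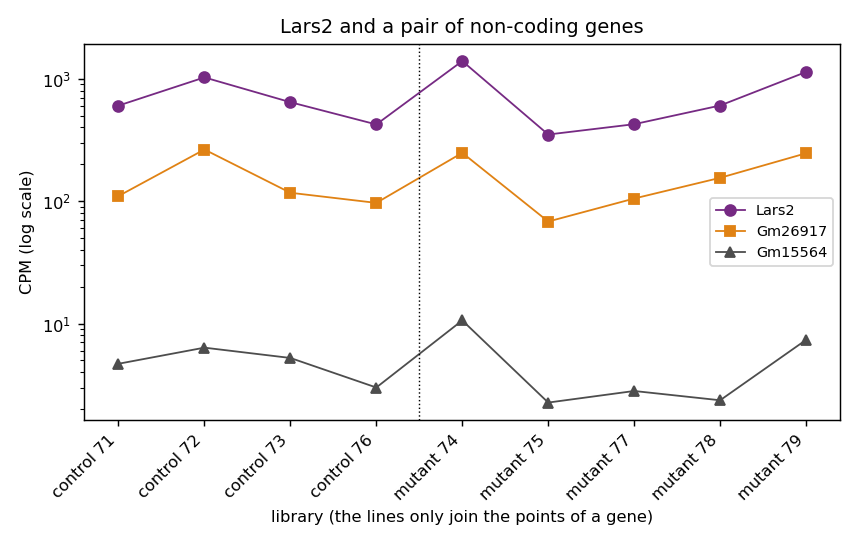
CPM (log scale) of *Lars2* and the non-coding genes *Gm26917* and *Gm15564* in the 4 control and 5 mutant libraries. All 3 genes are at their highest in control 72, mutant 74 and mutant 79, and the levels of the genotypes overlap.

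Where an amino acid has a cytosolic and a mitochondrial gene, their ratio within a library does not depend on how libraries are scaled. For 16 such pairs the log2 ratio of counts (each count plus 0.5) was compared between genotypes by a 2-sided exact permutation test over the libraries, which cannot give a p under 0.00794 with 4 against 5, without adjustment over the pairs. The ratio shifted towards the cytosolic gene in 10 pairs and towards the mitochondrial gene in 1 pair with an exact p under 0.05. No such share was computed over other pairs of genes, so these counts have no background beside them. Of single genes, 4709 of 14990 had an unadjusted edgeR p under 0.05. The pairs also reuse the genes called above, with *Eprs* in both *Eprs/Ears2* and *Eprs/Pars2*, and are not independent of those calls. In 9 pairs the mutant ratios all exceeded the control ratios, and the smallest p was reached by *Aars/Aars2*, *Cars/Cars2*, *Iars/Iars2*, *Nars/Nars2*, *Sars/Sars2* and *Eprs/Ears2*.

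The largest shift was that of *Iars/Iars2*, with log2 ratios of 1.25, 0.99, 1.36 and 1.55 in control and 2.06, 2.55, 2.96, 2.76 and 2.97 in mutant libraries, a difference of 1.37 (SE 0.20, exact permutation p = 0.00794). *Sars/Sars2* was at 2.25, 2.16, 2.40 and 2.40 in control and 3.64, 3.61, 3.50, 3.46 and 3.67 in mutant libraries, a difference of 1.27 (SE 0.07, exact permutation p = 0.00794). This shift had the smallest SE of the 16 pairs, with the cytosolic gene called higher and the mitochondrial gene called lower. *Aars/Aars2* was at 3.33, 2.32, 3.60 and 3.46 in control and 3.84, 4.34, 4.37, 4.55 and 4.19 in mutant libraries, a difference of 1.08 (SE 0.31, exact permutation p = 0.00794). *Cars/Cars2* was at 2.24, 2.84, 3.02 and 2.73 in control and 3.42, 3.30, 3.16, 3.62 and 4.07 in mutant libraries, a difference of 0.81 (SE 0.23, exact permutation p = 0.00794).

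*Tars/Tars2*, *Rars/Rars2* and *Yars/Yars2* shifted by 0.79, 0.53 and 0.50 (exact permutation p = 0.0159 each), *Eprs/Ears2* by 0.62 and *Nars/Nars2* by 0.52 (0.00794 each), and *Eprs/Pars2* by 0.78 (0.0397). The shift of *Rars/Rars2* came with a cytosolic gene that did not pass the test and a mitochondrial gene that fell. In *Wars/Wars2* the ratio went the other way, by −0.56 (SE 0.12, exact permutation p = 0.0238), with all mutant ratios under all control ratios. The ratios of *Hars/Hars2*, *Lars/Lars2*, *Mars/Mars2*, *Vars/Vars2* and *Farsa/Fars2* differed by between −0.34 and 0.42 and had exact permutation p-values of at least 0.23. *Hars* and *Hars2* start back to back and share 195 exon bases on opposite strands.

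**Figure D4:**
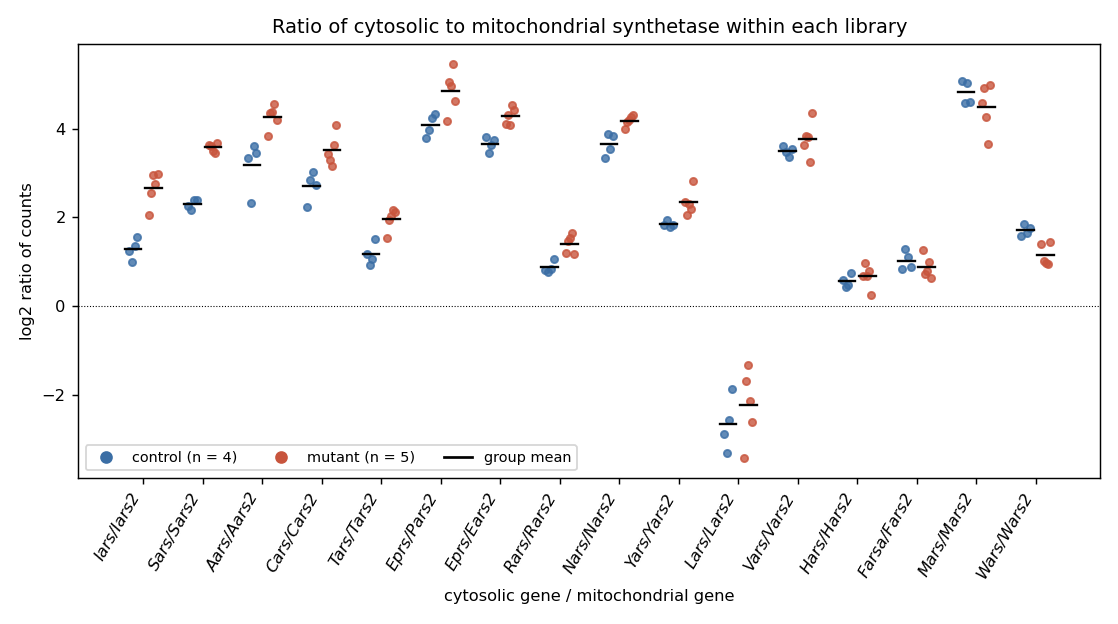
Log2 ratio of counts of the cytosolic over the mitochondrial gene (y axis) for 16 pairs ordered by the shift, with a point for each library and a bar at each group mean. From *Iars/Iars2* at 1.37 to *Yars/Yars2* at 0.50 the mutant points lie above the control points, apart from an overlap in *Eprs/Pars2*, and in *Wars/Wars2* they lie below.

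A further 2 ratios were added after the values were seen. *Tars/Tarsl2* rose by 0.97 (SE 0.24, exact permutation p = 0.00794). *Farsb/Farsa*, the subunits of a single enzyme, differed by 0.48 (SE 0.23, exact permutation p = 0.0794).

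Other genes of tRNA handling and translation were counted in the same fit, where 7.82% of all genes tested were called higher and 7.02% lower. The 21 tRNA accessory genes process, edit, export or modify tRNAs, charge them by other routes, or serve the making and use of selenocysteine. Of these, 2 were called higher and 1 lower, near those shares, with a median log2 fold change of −0.01. *Xpot*, the exporter of tRNA from the nucleus, was at 40.3, 63.4, 57.9 and 50.2 CPM in control and 90.9, 72.6, 76.2, 72.8 and 107 CPM in mutant libraries (log2 fold change 0.66, SE 0.16, edgeR adjusted p = 0.0162). *Trmt10c*, a methyltransferase subunit of mitochondrial RNase P, had a log2 fold change of 0.89 (SE 0.22, edgeR adjusted p = 0.0181). As in *Eef1e1*, mutants 75, 77 and 78 were highest, at 158, 177 and 170 CPM, and mutant 74, at 76.1 CPM, lay among the controls. *Dtd2*, a deacylase that clears mischarged tRNA, had −0.41 (SE 0.13, edgeR adjusted p = 0.0486).

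Of 9 mitochondrial translation factors, none was called higher and 1 was called lower, the release factor *Mtrf1* (log2 fold change −0.48, SE 0.14, edgeR adjusted p = 0.0323). Of 4 genes of elongation factor 1, which brings charged tRNA to the cytosolic ribosome, *Eef1a1* and *Eef1g* were called higher, with log2 fold changes of 0.49 and 0.42.

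Of 29 genes that sense uncharged tRNA or belong to the ATF4 program, none of which is a member, 21 were called higher and none lower. The shares over all genes tested were 7.82% and 7.02%. The median log2 fold change of the list was 1.20. The study already named several of these from the same samples, so the list is not independent evidence of its direction. The largest rises were those of *Nupr1*, a stress-induced transcription regulator, with a log2 fold change of 4.61 (SE 0.40, edgeR adjusted p = 0.00012), *Chac1*, which degrades glutathione, with 2.90 (SE 0.27, 0.00014), and *Trib3*, a pseudokinase that binds ATF4, with 2.88 (SE 0.35, 0.000525). Singled out after their values were seen were *Atf4*, at 204, 168, 189 and 207 CPM in control and 295, 461, 580, 482 and 448 CPM in mutant libraries, and *Eif2ak4*, whose log2 fold change was −0.11 (SE 0.21, edgeR adjusted p = 0.755). The summed level of the list was 2167 to 2455 CPM in control libraries and 3679, 4153, 5127, 4512 and 5599 CPM in mutants 74, 75, 77, 78 and 79. The mutant libraries stood in the same order for this sum as for the sum of the cytosolic enzymes, 79, 77, 78, 75 and 74, which is a description of 5 libraries. TGATGNAA was in the windows of 8 of the 25 genes of the list that had one.

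The library with the highest value for all 10 cytosolic enzymes that rose was mutant 79, and mutant 75 was the lowest mutant library for 6 of them. Without mutant 79, 7 cytosolic enzymes were called higher. Without mutant 75, 10 were. The stromal sum of every mutant library was above that of every control library, so leaving out a library cannot separate stroma from genotype. The part of the stromal and myeloid transcripts in the rise of the enzymes was not tested. *Cars*, *Gars*, *Iars*, *Nars*, *Sars*, *Tars* and *Yars* were called higher, and *Rars2* lower, in all 17 alternatives, which included 9 fits with a library left out. The calls of *Aars*, *Lars* and *Mars* depended on the libraries used. The edgeR adjusted p ranged from 0.0237 to 0.0991 for *Aars*, which lost its call without control 71, 72 or 76 or mutant 77, 78 or 79. It ranged from 0.0254 to 0.134 for *Lars*, lost without control 71, 72 or 73 or mutant 77, 78 or 79, and from 0.0295 to 0.127 for *Mars*, lost without control 71, 72 or 76 or mutant 75, 77 or 79. Among mitochondrial enzymes the range was 0.0301 to 0.116 for *Mars2*, which kept its call only without mutant 74 or 75. It was 0.015 to 0.0626 for *Wars2*, lost without control 71 or 72 or mutant 77 or 78, and 0.0346 to 0.0788 for *Sars2*, lost without control 71, 72 or 73 or mutant 75 or 78.

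Strand was lost in library preparation, and reads in a stretch shared by genes on opposite strands cannot be assigned to either. By the gene spans in the table, 12 of the 40 members overlap another of its genes on the other strand, and by those of GENCODE M21 14 do. In both counts 4 of the members called higher are among them, *Cars*, *Lars*, *Mars* and *Yars*. By M21, *Mars* shares 68 exon bases with *Ddit3*, which rose by a log2 fold change of 1.67, *Yars* shares 30 with *C77080*, and *Cars* shares 211 with the pseudogene *Gm15580*. *Iars2* shares 2034 of its 8885 exon bases with *Rab3gap2*, and *Aars* shares 1326 with *Exosc6* on the same strand. How many of their reads come from the shared bases was not tested.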

How the data were processed

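RNA was sequenced from SIX2 progenitors of 4 control and 5 mutant preparations. Per the labels, cDNA was amplified from low-input RNA with poly(A) selection, without strand. The deposited table holds counts of reads per gene and FPKM values, which the authors computed from the counts, the gene length and the library total (recomputed within 1% for 100% of the values above 0). The submitters' processing notes name STAR, DESeq2 and build mm10. The counter and annotation are not given in the sources used here. The columns of the authors' own comparison (fold changes and p-values) were not used. Of 24811 genes matched by symbol, 99.9% overlapped the gene of that symbol in GENCODE M21 (GRCm38). Genes were matched by symbol, since the identifiers of 2 members did not match their symbols.

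The test was that of edgeR 4.0.16 in R 4.3.3 (filterByExpr on genotype, TMM, robust quasi-likelihood test, Benjamini-Hochberg over 14990 genes, threshold 0.05). SE is the log2 fold change over the square root of F. The 95% intervals are approximate, since they take a normal multiplier of this SE and are narrower than the test implies. That of *Aars2* ran from −1.21 to −0.02, although its unadjusted edgeR p was 0.0614. Library totals were 21040536 to 23986458, and counting error is largest for low genes such as *Mars2*. Alternatives were DESeq2 1.42.0, upper-quartile or RLE scaling, keeping each gene with 1 count or more, requiring 10 counts or more in all libraries, quality-weighted limma-voom (limma 3.58.1), sva 3.50.0 with 1 surrogate variable, a covariate of Y-linked expression and each library left out; for pairs, counts plus 5. Similar transcripts were searched with BLAST 2.17.0 (at least 95% identity over at least 60 bases). Figures were drawn with matplotlib 3.10.9. Proteins of the pairs were not compared, since protein sequences were not used here.

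The members and lists were chosen with earlier results of these data known. Named with values in every library were the 5 largest and 3 smallest fitted changes among cytosolic enzymes, mitochondrial enzymes past the threshold and the 2 largest changes among those not past it, *Tarsl2*, the scaffold genes and the 4 pairs with the largest shift. In other lists the 3 largest called changes in each direction were named, with values in every library for some.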

Additional observations from a re-analysis of the deposited data

Results flagged for a closer look

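A gap test on the lowest and highest library of each gene and genotype passed its critical value in 2 of 82 groups, where chance gives about 1 in 20, or 4.1 of 82. The first was *Nars* in control 76, at 262 CPM, where the other control libraries were all at 269 CPM. The difference is small beside the mutant values, which began at 384 CPM. The other was *Mars2* in control 71, at 3.07 CPM, where the other control libraries were at 4.68 to 4.79 CPM. Without control 71, *Mars2* no longer passed the threshold.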

How the results depend on the processing

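No paired analysis was possible because the labels give no litter or pairing. All genes tested gave 2225 calls, 4868 with limma-voom and 1046 to 3136 with a library left out. The 12 members called higher became 7 to 14 with a library left out (7 without control 71, control 72 or mutant 77), and 10 to 14 under the other tools, normalizations, filters and covariates. It was 8 without the members that overlap a gene on the other strand by the spans in the table, and 11 with a log2 fold change of at least 0.5. The 2 called lower became 1 without a filter beyond 1 count, and 1 to 3 with a library left out (1 without control 71, 72 or 73 or mutant 75 or 78). All of these lower calls, in each of these fits, came from the mitochondrial enzymes, whose counts were the same. Their 2 higher calls became 1 without a filter, 1 with the covariate of Y-linked expression, and 0 to 2 with a library left out (0 without control 71, control 72, mutant 77 or mutant 78). The 10 cytosolic calls stayed between 7 and 12. The cytosolic median of 0.46 was 0.30 with limma-voom, and 0.40 to 0.48 with a library left out. The mitochondrial median ranged from −0.29 to −0.02. *Lars2* passed the threshold with 1 surrogate variable only (adjusted p = 0.0172). This variable had its lowest values in mutants 75, 77 and 78, the libraries in which *Eef1e1* was highest. With it the log2 fold change of *Eef1e1* was 0.14 (edgeR adjusted p = 0.385), beside 0.44 without it. Of the single genes and pairs under their alternatives, 775 values kept their side of the threshold, 51 lost a call, 14 gained one and none reversed. *Eprs/Pars2* lost its exact p under 0.05 whenever a library other than mutant 74 was left out. Besides the fits with a library left out, calls were lost by *Aars* and *Mars* with limma-voom, by *Lars* and *Mars* with upper-quartile normalization, by *Lars* and *Mars2* with 1 surrogate variable, by *Mars2* with the covariate, and by *Mars2* and *Sars2* without a filter. The causes were not tested. The mitochondrial set without *Lars2* and the 2 added ratios were chosen after seeing the data.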
